A study of Mus musculus with 12 samples.

Results

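Growth factors made by muscle fibroblasts, and the receptors through which fibroblasts read them, were followed across treatment with a mineralocorticoid receptor agonist or antagonist. The set held 9 genes of the 25133 genes present in all 3 deposited tables, found by their gene symbol: 7 secreted ligands (*Hgf*, *Fgf2*, *Fgf7*, *Fgf10*, *Bdnf*, *Kitl* and *Csf1*) and 2 receptors (*Fgfr1* and *Fgfr2*). All 9 were found, and all had a mean of over 10 normalized counts in every group. Primary fibroblasts came from hindlimb skeletal muscle of 2 wild-type C57 BL/10 mice at postnatal day 3, without any transgene, and were enriched by adherence and grown to passage 2. Cells of each mouse were pooled and plated again, with 2 plates per mouse and treatment, kept in medium with charcoal-stripped serum from 24 hours earlier so that steroids were removed, and treated for 48 hours with 1 µM aldosterone, 1 µM spironolactone (the antagonist) or vehicle (DMSO). Each treatment gave 4 libraries of poly(A) RNA, numbered here 1 to 4. Replicates 1 and 2 carry sample number 1, and replicates 3 and 4 carry sample number 2. The sources used here do not say whether that number is the mouse, so p-values over 4 libraries measure the spread among plates of 2 mice.

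Fibroblast growth factors (FGFs) bind receptor tyrosine kinases on the cell surface together with heparan sulfate chains, and signal through the ERK kinases, whose activity induces its own inhibitors. In skeletal muscle, fibroblasts are a known source of hepatocyte growth factor and FGFs, which act on the satellite cells that rebuild muscle fibres. Brain-derived neurotrophic factor (*Bdnf*), the KIT ligand (*Kitl*, also called stem cell factor) and the macrophage colony-stimulating factor (*Csf1*) act on neurons, mast and other blood cells, and macrophages, through the receptors TrkB (*Ntrk2*), KIT and CSF1R.

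Reads on genes numbered 19136923 to 30219185 in each library. The values are normalized counts, which are reads over the library's own size factor, and each pair of treatments has a table normalized on its own. *Fkbp5*, a steroid-induced gene that serves as a check of the treatment, had 6330.1 ± 473 normalized counts with aldosterone against 330.4 ± 38.7 with vehicle (SD, n = 4 each). All 8 fibroblast markers were present, with a summed level of 824182 to 935590.4 per aldosterone library and 1027167 to 1124415 per vehicle library.

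The promoters of the 3 genes that moved most with aldosterone differ in sequence, and are shown from the RefSeq promoter table (GRCm38.p6, a different build from that of the deposited tables) as the 100 bases before the start, on the gene's strand. *Hgf* fell and *Fgf2* and *Kitl* rose, and capitals mark CpG dinucleotides. All 3 genes lie on the plus strand, and *Hgf* has 2 starts in that table, of which the first is shown.
Hgf, chr5:16553395-16553494: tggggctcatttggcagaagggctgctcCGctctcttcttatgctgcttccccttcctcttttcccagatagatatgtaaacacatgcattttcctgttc
Fgf2, chr3:37348553-37348652: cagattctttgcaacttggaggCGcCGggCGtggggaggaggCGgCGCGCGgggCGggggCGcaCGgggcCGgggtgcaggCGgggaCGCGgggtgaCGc
Kitl, chr10:100015721-100015820: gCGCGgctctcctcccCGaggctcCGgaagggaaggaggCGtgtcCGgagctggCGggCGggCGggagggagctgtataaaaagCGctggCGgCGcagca
The stretch of *Hgf* held 1 CpG (4 at its second start), that of *Fgf2* 15 and that of *Kitl* 12. The full 300-base windows run from 250 bases before to 50 after the start. They held 7 (6 at the second start of *Hgf*), 24 and 28 CpG, against a median of 7 over 32851 windows of all genes. Which start of *Hgf* these cells use was not tested. The hexamer TGTTCT, the core of the element bound by steroid receptors of this family, was searched on both strands (as TGTTCT or AGAACA). It was found in 5 of the 15 windows of the 8 genes that the table holds (*Fgfr1* was not matched), and in 19.0% of all windows. The 5 windows were 1 of 2 for *Hgf*, 3 of 7 for *Bdnf* and the window of *Csf1*, and the windows of *Fgf2*, *Fgf7*, *Fgf10*, *Fgfr2* and *Kitl* held none. The paired form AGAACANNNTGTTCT, of which each hexamer is a part, was in none of the 15 windows and in 3 windows of all genes. In *Hgf* the hexamer, in capitals, began at base 17 counted from 1 at the start, within 30 bases on the plus strand.
Hgf, chr5:16553499-16553528: ggggcgaattggTGTTCTgcctgtgccttg
In *Csf1*, on the minus strand, it began 124 bases before the start.
Csf1, chr3:107760576-107760605: agcattagaccgAGAACAatcacacgagat
These are matches of letters only.

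Levels were compared between genes as normalized counts per kb of the listed gene length. In vehicle-treated cells, *Csf1* was the most abundant of the 9 at 3804 ± 445 (SD, n = 4), above 98.4% of 13012 protein-coding genes. *Fgf7* followed at 728 ± 17.5, then *Fgfr1* at 605 ± 30.9, *Fgfr2* at 411 ± 88.8 and *Fgf2* at 212 ± 18.4 per kb. The libraries of each of these 5 genes lay apart from those of the next gene in the order. *Fgf10* at 172 ± 6.78, *Hgf* at 149 ± 15.5, *Bdnf* at 144 ± 17.3 and *Kitl* at 129 ± 14.9 per kb made up the lower end, and each overlapped its neighbour. *Kitl*, the lowest, still stood above 50.9% of the protein-coding genes. With aldosterone the order was *Csf1*, *Fgfr1*, *Fgf7*, *Fgfr2*, *Fgf2*, *Kitl*, *Fgf10*, *Bdnf* and *Hgf*, so that *Kitl* moved from the last place to the sixth and *Hgf* from the seventh to the last. *Fgfr1*, *Fgf7*, *Fgfr2* and *Fgf2* then overlapped from each to the next, and the others did not overlap their neighbours. With spironolactone the order was that of vehicle except that *Bdnf* and *Hgf*, whose libraries overlapped in both groups, changed places.

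**Figure D1:**
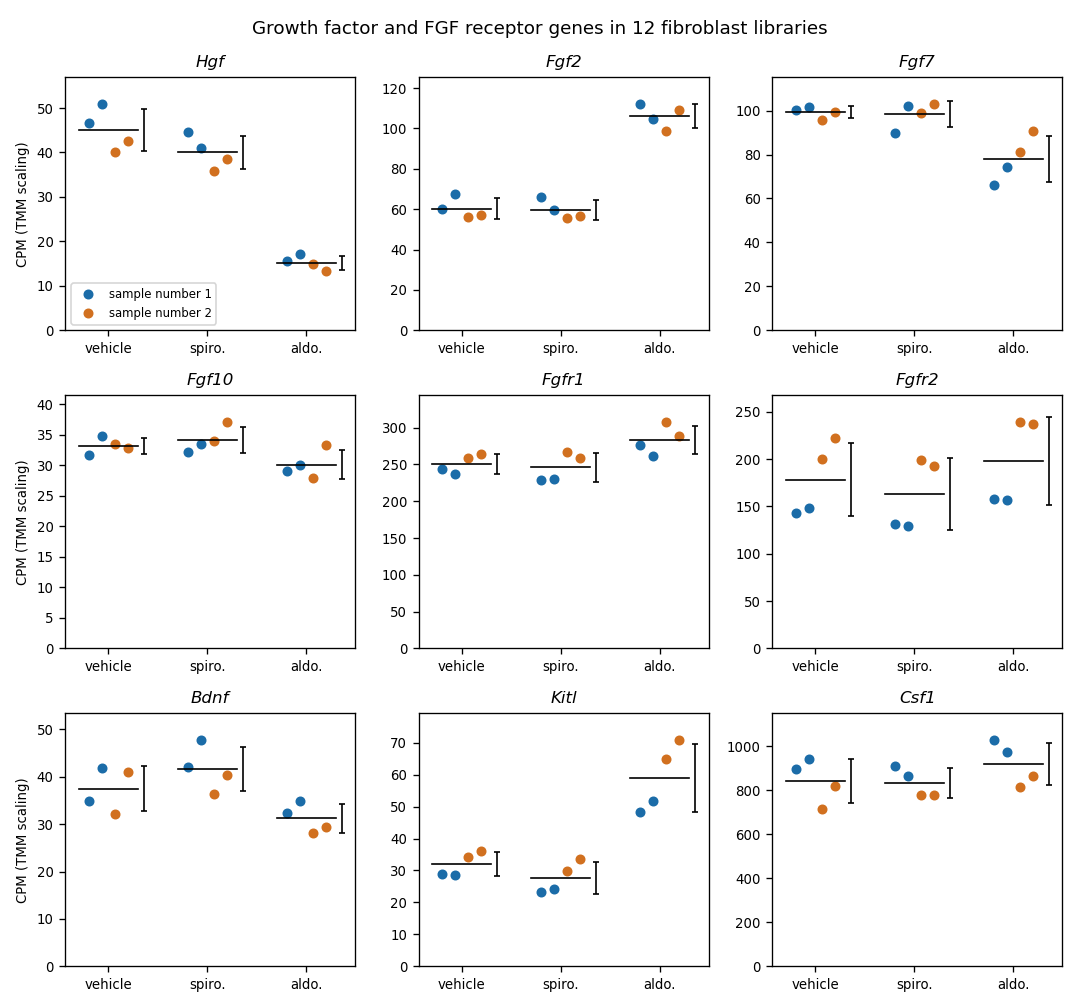
CPM (counts scaled to equal library totals, with the TMM factors of edgeR) are plotted for each of the 9 genes in the 12 libraries; each point is a library, coloured by sample number, and the line and bar give the mean and SD of a treatment (n = 4). *Hgf* is lowest and *Fgf2* and *Kitl* highest in the 4 aldosterone libraries, without overlap with the other treatments, and *Fgfr2* separates by sample number within every treatment.

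Aldosterone changed 4 of the 9 genes against vehicle, with 2 higher (*Fgf2* and *Kitl*) and 2 lower (*Hgf* and *Fgf7*), by limma at a threshold of 0.05 on the p adjusted after Benjamini and Hochberg, at any fold change. Over all 27319 genes tested, 10.4% were called (5.68% higher and 4.74% lower), and 17.7% were of those whose mean reached 10 normalized counts. The 9 genes were chosen with results of these data known, so the count describes them and is no independent evidence. Of the 9 genes, *Hgf* also passed an absolute log2 fold change of 1, which 2.06% of all genes did. With a replicate block on the sample number, 8 of the 9 genes were called, 5 higher and 3 lower, where 16.7% of all genes were (8.68% and 8.02%), the exception being *Fgf10* (adjusted p = 0.116). That share with the block is over all genes tested, those of low level included. The groups did not overlap in the 4 genes called without the block, as in 14.5% of all genes. With plates averaged within a sample number, which leaves 2 values per treatment, *Hgf*, *Fgf2* and *Kitl* still passed. As the RNA is of whole plates, fewer cells of a type and less RNA per cell cannot be told apart.

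*Hgf*, which encodes the ligand of the receptor MET and is known to draw satellite cells out of quiescence, was lower with aldosterone, with the greatest fold difference of the 9 genes. It lies at chr5:16758493-16825150 on the plus strand (mm39, as in the deposited tables). The 4 vehicle libraries had 1112, 1211, 962 and 1008 normalized counts, and the 4 aldosterone libraries 371, 407, 353 and 315. Every aldosterone library was below every vehicle library, with means of 361 ± 38.2 and 1073 ± 111 (log2 fold change -1.57, SE 0.09, adjusted p = 4.3e-09). On this scale aldosterone left 0.337 of the vehicle level. The difference was -1.58 on the log2 scale within sample number 1 and -1.56 within sample number 2. Against spironolactone, whose libraries had 1094, 997, 874 and 946 in the table of that pair, *Hgf* was lower as well (log2 fold change -1.39, SE 0.09, adjusted p = 7.0e-09). Within its span and on its strand, the unclassified transcript *Gm43489* had 5.51 ± 3.26 normalized counts with aldosterone and 26.5 ± 4.22 with vehicle (log2 fold change -2.26, adjusted p = 0.00313), a gene named after its values were seen, and reads shared with *Hgf* cannot be told apart here. The other unclassified transcript there, *Gm42975*, had 0 with aldosterone and 3.28 ± 2.34 normalized counts with vehicle.

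*Fgf2*, a heparin-binding mitogen of myoblasts and fibroblasts that leaves the cell without a classical signal peptide, was higher with aldosterone. It lies at chr3:37402495-37464257 on the plus strand. Vehicle libraries had 1432, 1614, 1348 and 1350.4 normalized counts, and aldosterone libraries 2678, 2482, 2348 and 2575. The lowest aldosterone library was thus above the highest vehicle library, and the means were 2521 ± 140.2 and 1436 ± 125 (log2 fold change 0.81, SE 0.07, adjusted p = 3.5e-07), a 1.76-fold difference. Spironolactone libraries had 1621, 1451, 1362 and 1384, and aldosterone stood above them as well (log2 fold change 0.83, SE 0.07, adjusted p = 1.1e-07). Of 3 genes on the opposite strand, the protein-coding *Nudt6* had 38.8 ± 9.05 normalized counts with aldosterone and 35.7 ± 6.99 with vehicle. The antisense *Fgf2os* had 10.0 ± 4.45 and 2.23 ± 2.07, and the unclassified *Gm42923* 6.83 ± 5.51 and 2.62 ± 1.93. The use of strand in counting is not given in the sources used here, so reads shared with *Fgf2* cannot be told apart. Per kb, the ratio of *Fgf2* to *Hgf* was between 1.37 and 1.49 in the vehicle libraries, 1.54 and 1.65 in the spironolactone libraries, and 6.47 and 8.67 in the aldosterone libraries.

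*Fgf7* and *Fgf10* belong to the same FGF subfamily, are made by mesenchymal cells and signal mainly to an epithelial splice form of FGFR2. *Fgf7* (chr2:125876578-125933105, plus strand) was lower with aldosterone by a small margin. Its vehicle libraries lay close together, at 2388, 2425, 2291 and 2358 normalized counts, and its aldosterone libraries at 1582, 1762, 1933 and 2135. The groups did not overlap, and the means were 1853 ± 236 and 2366 ± 56.9 (log2 fold change -0.36, SE 0.08, adjusted p = 0.00462). The difference was -0.53 within sample number 1 and -0.19 within sample number 2, and a test of treatment by sample number gave an interaction of 0.33 (95% confidence interval 0.13 to 0.54) with an adjusted p of 0.895 over all genes, of which 0.0146% passed. The call was lost when aldosterone replicate 2 or 3, or any of the 4 vehicle libraries, was left out (adjusted p up to 0.085). With plates averaged within a sample number, the adjusted p was 0.163. Against spironolactone the log2 fold change was -0.34 (adjusted p = 0.00916), and 7 of the 8 omissions, all but that of aldosterone replicate 4, ended this call, with an adjusted p up to 0.15.

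*Fgf10* (chr13:118806327-118928651, plus strand) had 753, 826, 801 and 778 normalized counts in the vehicle libraries and 695, 714, 664 and 784 in the aldosterone libraries. These overlapped, and the difference did not pass the test (log2 fold change -0.15, SE 0.07, adjusted p = 0.235, 95% confidence interval -0.29 to -0.0011). Against spironolactone it was -0.18 with an adjusted p of 0.152, which became 0.0448 with the sample number as a block. Per kb, *Fgf7* was 4.05 to 4.49 times as abundant as *Fgf10* in the vehicle libraries and 3.23 to 4.13 times in the aldosterone libraries.

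Neither receptor passed the test against vehicle without the block. *Fgfr1* (chr8:26003670-26065734, plus strand), the main FGF receptor of mesenchymal cells, had 5801, 5636, 6192 and 6271 normalized counts in the vehicle libraries and 6602, 6201, 7312 and 6789 in the aldosterone libraries. The groups overlapped by 1 aldosterone library, replicate 2, and the log2 fold change of 0.17 did not pass the test (SE 0.06, adjusted p = 0.0959). It passed with the sample number as a block (adjusted p = 0.0023) and with DESeq2 on the reads behind the values (adjusted p = 0.0475). Against spironolactone the value was 0.20 (adjusted p = 0.0672, 0.000503 with the block and 0.0337 with DESeq2).

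*Fgfr2* (chr7:129764181-132725079, minus strand), the receptor that FGF7 and FGF10 use in epithelia, split by sample number. Vehicle libraries had 3408, 3537, 4787 and 5259.9 normalized counts, and aldosterone libraries 3772, 3728, 5683 and 5571. Within each treatment the replicates of sample number 2 were both above those of sample number 1. Over these 8 libraries the difference was 0.56 on the log2 scale (1.47-fold, adjusted p = 3.1e-11 in the fit with the block). For the sample number, 8.77% of all genes were called in that fit. Only 2 sample numbers were compared, so the p-value is set against the spread among plates and measures no spread between samples. Aldosterone differed from vehicle by 0.14 (95% confidence interval -0.18 to 0.46, adjusted p = 0.674), and the adjusted p was 0.0188 with the block. Against spironolactone the difference was 0.28 (adjusted p = 0.365, and 4.3e-06 with the block). The p-values of treatment with the block are set against the spread among plates as well. With plates averaged within a sample number, *Fgfr2* passed in neither comparison with aldosterone. The span listed for *Fgfr2* overlaps 48 other genes, 25 of them on the same strand, and how reads on shared stretches were divided is not given in the sources used here, so its count is uncertain. Counts per gene do not separate the epithelial and mesenchymal splice forms of either receptor.

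*Bdnf* (chr2:109505045-109557352, plus strand) had 835, 995, 772 and 974 normalized counts in the vehicle libraries and 774, 831, 668 and 694 in the aldosterone libraries. The groups overlapped, and the log2 fold change of -0.27 did not pass the test (SE 0.09, adjusted p = 0.0787), but did so with the sample number as a block (adjusted p = 0.00571). Against spironolactone *Bdnf* was lower with aldosterone, and the groups did not overlap, as in 13% of all genes. There the spironolactone libraries had 1033, 1159, 888 and 986 and the aldosterone libraries 797, 854, 686 and 713 (log2 fold change -0.41, SE 0.09, adjusted p = 0.00407). This call was lost when aldosterone replicate 3 or 4, or spironolactone replicate 1, 2 or 4, was left out, with an adjusted p up to 0.0898.

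*Kitl* (chr10:99851492-99936278, plus strand) was also higher with aldosterone. Vehicle libraries had 693, 679, 816 and 856 normalized counts, and aldosterone libraries 1157, 1227, 1545 and 1665. Again no aldosterone library reached down to the vehicle libraries, and the means were 1399 ± 245 and 761 ± 88.2 (log2 fold change 0.87, SE 0.11, adjusted p = 3.9e-05), a 1.82-fold difference. Sample number 2 was also above sample number 1 within each treatment. Over these 8 libraries the difference was 0.36 on the log2 scale (adjusted p = 2.6e-05, again set against the spread among plates). The effect of aldosterone was 0.80 in sample number 1 and 0.94 in sample number 2. Spironolactone libraries had 566, 586, 731 and 824, and *Kitl* was higher with aldosterone (log2 fold change 1.09, SE 0.12, adjusted p = 7.8e-06) and passed an absolute log2 fold change of 1, which it missed at 0.998 without aldosterone replicate 4. With plates averaged within a sample number the adjusted p of that comparison was 0.0585.

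*Csf1* (chr3:107648364-107667785, minus strand) had 21416, 22451, 17139 and 19355 normalized counts in the vehicle libraries and 24565, 23093, 19441 and 20344 in the aldosterone libraries. The groups overlapped, and the difference was 0.12 (95% confidence interval -0.064 to 0.31, adjusted p = 0.494). With the sample number as a block the adjusted p was 0.0398, and libraries of sample number 2 were lower by 0.26 on the log2 scale. Against spironolactone the difference was 0.14 (adjusted p = 0.369, and 0.0185 with the block).

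Against spironolactone, 5 of the 9 genes were called in all, 2 higher and 3 lower, where 8.88% of 27631 genes were (4.93% higher and 3.96% lower), and 2 genes (*Hgf* and *Kitl*) also passed the fold change threshold, as 1.9% of all genes did. With the sample number as a block all 9 were called, 5 higher and 4 lower, and of all genes 14.4% (7.58% and 6.8%). Those shares count genes of low level too, which the 9 are not. In a fit without the block limited to the 15300 genes whose mean reached 10, 2571 were called. The values against spironolactone share the aldosterone libraries with those against vehicle and are no repeat of them.

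Spironolactone was compared with vehicle to see whether the antagonist alone moved these genes. None of the 9 was called by limma, with or without the block, where 0% of 27598 genes were called without it, 0.351% with it, and 1251 had an unadjusted p under 0.05. DESeq2 and edgeR called 0 of the 9 as well. The interval of *Hgf* lay just below 0, with a log2 fold change of -0.17 (95% confidence interval -0.34 to -0.0012, adjusted p = 0.934), and spironolactone and vehicle means were 958 ± 89.9 and 1079.6 ± 112. *Kitl* differed by -0.22 (-0.45 to 0.013) and *Bdnf* by 0.15 (-0.041 to 0.34). For *Fgf2* the interval was -0.17 to 0.13, for *Fgf7* -0.14 to 0.10, for *Fgf10* -0.10 to 0.18, for *Fgfr1* -0.16 to 0.10, for *Csf1* -0.18 to 0.15 and for *Fgfr2*, the widest, -0.44 to 0.17.

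**Figure D2:**
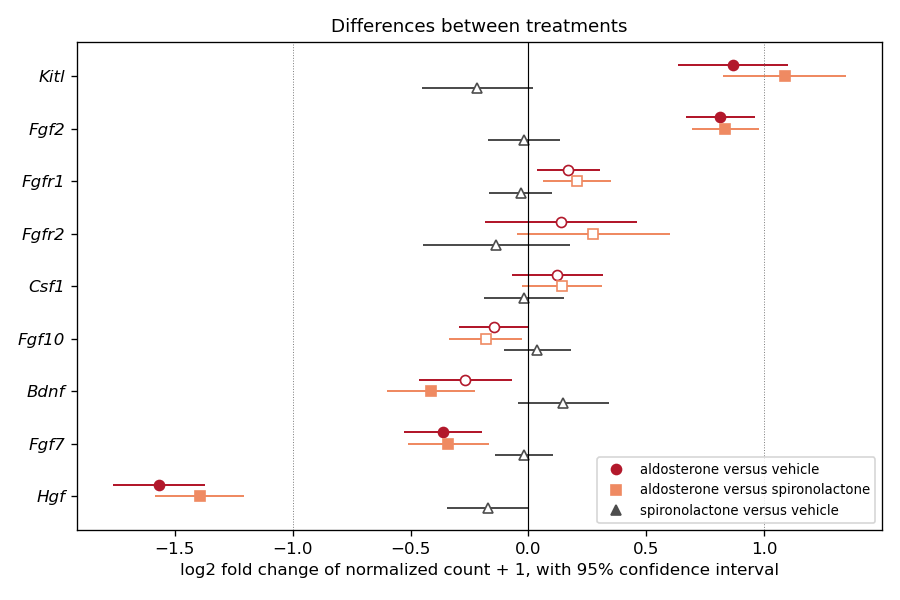
Log2 fold changes of normalized count + 1 are plotted with their 95% confidence intervals for the 9 genes in the 3 comparisons, in the order of the difference between aldosterone and vehicle; filled symbols have an adjusted p of at most 0.05, and dotted lines mark an absolute log2 fold change of 1. *Hgf* lies at -1.57 and -1.39 in the comparisons with aldosterone, *Kitl* at 0.87 and 1.09, and every value of spironolactone against vehicle lies between -0.22 and 0.15.

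Treatment by sample number was tested for each of the 9 genes in each of the 3 comparisons, a choice made after seeing the data, and none of the 27 interactions passed (lowest adjusted p = 0.895), where 0.0146%, 0.0145% and 0% of all genes did against vehicle, against spironolactone and between spironolactone and vehicle. Within the libraries of aldosterone and vehicle, *Fgfr2*, *Kitl* and *Fgfr1* were higher in sample number 2 and *Csf1* and *Hgf* lower. *Hgf* stood at -0.23 (adjusted p = 0.0198) and *Fgfr1* at 0.13 (adjusted p = 0.0357), and the other 4 genes did not pass. These p-values of the sample number are set against the spread among plates and measure no spread between samples.

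Markers of other cell types were read in the same libraries, between aldosterone and vehicle. There 10.4% of all genes tested were called without the block (17.7% of those whose mean reached 10) and 16.7% of all with it. Of 10 macrophage markers 8 had a row in the table, the others being *Itgam* and *C1qa*, and 1 was lower with aldosterone (*F13a1*, 17.5 to 64.6 normalized counts against 106 to 227). *Ptprc* was at 0 in all aldosterone libraries and *Adgre1* in all vehicle libraries, and the summed level was 263 to 338 with aldosterone and 376 to 545 with vehicle. Of 8 myogenic markers 6 had a row, without *Ckm* and *Myf5*, and 1 was lower (*Acta1*). *Pax7* was at 0 in all aldosterone libraries, and the sums were 207 to 441 and 520 to 768. Of 6 endothelial markers, 1 was higher (*Kdr*, 168 ± 79.6 against 45.1 ± 23.1) and 2 were with the block, the defining marker *Pecam1* was at 2.85 ± 0.852 against 6.57 ± 2.45, and the sums were 690 to 765 and 481 to 539. Of 5 Schwann cell and glial markers, *S100b* was higher, with sums of 363 to 485 and 268 to 350. None of 5 mural and 5 epithelial markers was called without the block, and 2 mural markers were lower with it. The mural sums, at 7067 to 10911 and 9322 to 12004, were above those of the other lists besides the fibroblast list. The epithelial sums were 19.4 to 26.7 and 8.39 to 24.4. Of the mast cell markers *Kit* alone was in the table. Of the fibroblast markers, *Pdgfra* was higher (0.91 on the log2 scale) and *Col3a1* lower (-0.43), and with the block 1 of the 8 was higher and 7 were lower. Their part in the differences of the 9 genes was not tested.

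Of 5 receptors of BDNF, KITL and CSF1 (*Ntrk2*, *Ngfr*, *Sort1*, *Kit* and *Csf1r*), 1 was higher with aldosterone than with vehicle and 0 were lower. In that comparison 10.4% of all genes tested were called, and 17.7% of those whose mean reached 10. *Met*, the receptor of HGF, had 527 ± 98.4 against 555 ± 148 normalized counts with aldosterone and vehicle and did not pass the test (log2 fold change -0.055, adjusted p = 0.891). *Ntrk2*, the receptor of BDNF, was higher with aldosterone, from 9.76 to 25.6 in the vehicle libraries to between 53.0 and 87.1 (log2 fold change 2.02, SE 0.31, adjusted p = 0.000265). Per kb *Ntrk2* stayed low, at 3.59 ± 0.854 with aldosterone, where *Bdnf* had 119 ± 12.0. *Ngfr*, which binds all neurotrophins, had 80.2 ± 19.2 against 71.2 ± 27.2 normalized counts and did not pass (adjusted p = 0.689). *Kit* had 8.75 ± 1.48 against 7.77 ± 4.71 and *Csf1r* 47.9 ± 13.3 against 54.1 ± 10.3 normalized counts, neither called (adjusted p = 0.71 and 0.694). *Il34*, the other ligand of CSF1R, was higher with aldosterone at 372 ± 38.1 against 176 ± 35.8 normalized counts (log2 fold change 1.09, adjusted p = 2.7e-05).

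**Figure D3:**
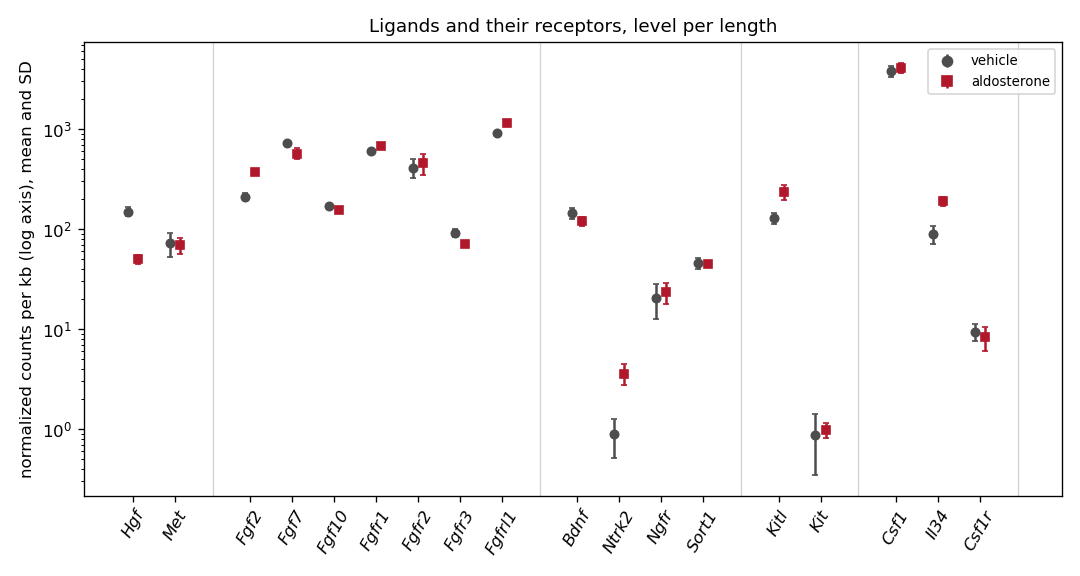
Normalized counts per kb of gene length are plotted on a log axis for the ligands and their receptors in vehicle (circles) and aldosterone (squares) libraries, as mean and SD (n = 4). *Kit*, *Ntrk2* and *Csf1r* lie between 0.872 and 9.38 per kb in vehicle, below their ligands *Kitl*, *Bdnf* and *Csf1*, while *Fgfr1* and *Fgfr2* are there below *Fgf7* and above *Fgf2* and *Fgf10*.

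Other genes of the same pathways were counted from lists chosen with earlier results of these data known, and all counts are against vehicle, where 10.4% of all genes tested were called and 17.7% of those whose mean reached 10. Of 18 FGF ligands in the table, 2 were higher and 5 lower. Their median log2 fold change was -0.27, against a median of -0.0064 over all genes tested. Over the 11 ligands whose mean reached 10 the median was -0.19, against -0.0033 over all such genes. *Fgf14*, an intracellular FGF that binds sodium channels, rose by 2.41 (241 ± 68.1 against 47.4 ± 23.1 normalized counts) beside *Fgf2*. *Fgf21*, an endocrine FGF, at -1.48, *Fgf5* at -1.30 and the intracellular *Fgf13* at -0.37 fell beside *Fgf7*, and the fifth was *Fgf6*, with 0 reads in the aldosterone libraries and under 4 normalized counts in each vehicle library. Of 14 FGF receptors and cofactors, 2 were higher and 3 lower (median 0.063). *Flrt2*, a membrane protein of a family that binds FGF receptors, rose by 0.47, and its relatives *Flrt1* (-0.84) and *Flrt3* (-0.54) and the receptor *Fgfr3* (-0.38) fell. The remaining gene of the 5 called was *Fgfrl1*, a receptor without a kinase domain, which was higher at 3238 ± 104 against 2553 ± 53.6 normalized counts.

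Of 17 feedback and target genes of FGF and ERK signalling, 2 were higher and 4 lower, and their median was -0.026. *Dusp6*, the phosphatase of ERK, rose by 0.50, while *Spry1*, a feedback inhibitor, at -0.50, *Etv4*, a transcription factor, at -0.64 and *Phlda1* at -0.65 fell. The list thus held called genes in both directions. Of 19 heparan sulfate proteoglycans and their enzymes, 2 were higher and 7 lower (median -0.094). *Gpc3* (0.84) and *Sdc4* (0.64), core proteins that carry heparan sulfate at the cell surface, rose, and *Hs6st2*, which adds sulfate to these chains, fell from 6829 ± 178 to 3637 ± 134 normalized counts (-0.91, adjusted p = 3.1e-09). The core protein *Sdc2* fell too (-0.55).

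Of 11 genes of HGF activation and MET signalling other than *Hgf*, 1 was higher (*Mst1r*, the receptor of a relative of HGF, at 0.79) and 0 were lower, and with the block 1 was higher and 2 were lower. Of 8 neurotrophins and glial factors, *Bdnf* among them, 0 were higher and 0 lower, and with the block 2 were lower. Of 5 colony-stimulating cytokines 2 were higher (*Il34* and *Kitl*). Of 18 other paracrine growth factors 3 were higher and 5 lower. *Tgfa*, a ligand of the EGF receptor, rose by 2.96 (729 ± 44.5 against 96.9 ± 34.3 normalized counts) and *Vegfd*, a lymphatic growth factor, by 1.47, and the heparin-binding factors *Ptn* (-1.39) and *Mdk* (-1.15) fell. When 1 library was left out, the calls of *Flrt3* and *Ptn* were lost in 8 of 8 omissions, those of *Fgf13* and *Etv4* in 7, of *Mst1r* and *Phlda1* in 6, of *Spry1* in 5 and of *Dusp6* in 1, with the adjusted p of *Flrt3* reaching 0.305 and that of *Dusp6* 0.0504. Of the 107 list genes that are not among the 9, 36 were called against vehicle (13 higher and 23 lower) and 30 of 108 against spironolactone (12 higher and 18 lower), where 8.88% of all genes tested were. With the sample number as a block, 16 were higher and 27 lower against vehicle, and 16 higher and 24 lower against spironolactone, where 16.7% and 14.4% of all genes were called. These shares count genes of low level too. In a fit against spironolactone limited to the 15300 genes whose mean reached 10, 2571 were called without the block. Without the block, none of the lists held a called gene between spironolactone and vehicle.

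**Figure D4:**
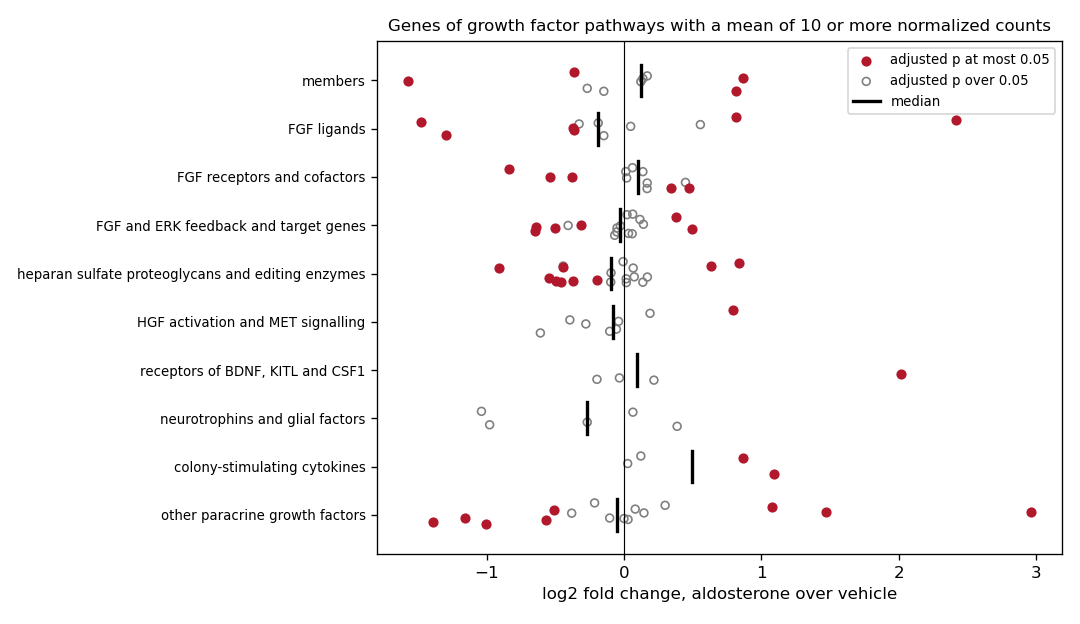
Log2 fold changes of aldosterone over vehicle are plotted for those genes of each list whose mean reached 10 normalized counts; filled points have an adjusted p of at most 0.05, vertical bars mark the list median, and the row named members holds the 9 genes. *Tgfa* (2.96), *Fgf14* (2.41) and *Ntrk2* (2.02) lie farthest to the right, and *Hgf* (-1.57) farthest to the left, among called genes.

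The genes most like the largest riser and the largest faller of the 9 were taken by Pearson's r of the log2 level over the 12 libraries, among the 11210 genes whose mean was 100 normalized counts or more. For *Kitl* they were *Cp*, which encodes the copper carrier ceruloplasmin (r = 0.990), *Aplp2* (r = 0.987) and *Pard3b* (r = 0.986). For *Hgf* they were *Lgr5*, a receptor of R-spondins (r = 0.990), *Igsf10* (r = 0.989) and *Fbln5*, an elastic fibre protein (r = 0.988). The 12 points share the treatments and the sample numbers, so these are descriptions only.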

How the data were processed

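Poly(A) RNA of 12 plates of fibroblasts was sequenced. The submitters' processing notes name HISAT2 2.0.5, featureCounts 1.5.0-p3 and the mouse build mm39, while the methods of the study name mm9, and none of the 9 genes starts in the tables where it does in GRCm38. The deposited signal values are the authors' normalized counts (reads on a gene over the library's own size factor), in 3 tables of a treatment pair each, beside group means, log2 fold changes and p-values of the authors, which were not used. The reads behind them were taken from each column's smallest step (values counted as whole within 0.001 of a multiple). For 2 columns, whose step was too close to 1, they were taken from the other table of that library.

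Each table was tested over all its genes with limma 3.58.1 (R 4.3.3, trend, two-sided) on log2(normalized count + 1), with treatment as the only factor and Benjamini-Hochberg adjustment. Fold changes on this scale understate changes of low genes. The tests were checked on simulated counts of independent replicates without an effect of the sample number, so the check does not cover that structure. Libraries with the same sample number, which the labels give, deviated together (r from 0.187 to 0.412, mean 0.328, in 24 pairs over 15313 genes). The fit with that number as a replicate block therefore stands beside results of the 9 genes where it changes a call. It also stands beside the count of all list genes together, while counts of single lists are mostly given without it. Alternatives were edgeR 4.0.16 with TMM and DESeq2 1.42.0 on recovered reads, TMM scaling, a value of 0.5 added, a mean of at least 10, blocks, single sample numbers, averaged plates and leaving out each library. The 9 genes and all lists were chosen with earlier results of these data known. Besides the 9 genes, named genes are the ligands' receptors, the list genes called with a mean of at least 10 (up to 4 per list with the greatest absolute fold change), and the 3 genes most like *Kitl* and *Hgf*. The markers, *Fkbp5*, *Gm43489*, *Gm42975*, *Nudt6*, *Fgf2os*, *Gm42923*, *Fgfrl1* and *Fgf6* were named after their values were seen. Of the lists, 1 gene is not reported here and entered no list count. Protein sequences were not used here. Depth leaves counting error small for the 9 genes, each of which had over 100 reads in every library.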

Additional observations from a re-analysis of the deposited data

How the results depend on the processing

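Between aldosterone and vehicle, the 4 calls among the 9 genes numbered 8 with a replicate block on the sample number and 0 with sample number 1 alone, where 0 also passed the fold change threshold in place of 1. They numbered 3 to 4 with 1 library left out. Between aldosterone and spironolactone, the 5 calls numbered 9 with that block, 0 with sample number 1 alone, 3 with sample number 2 alone, 2 with plates averaged within a sample number, and 3 to 4 with 1 library left out. The 2 genes past both thresholds there numbered 0 with sample number 1 alone, 1 with plates averaged, and 1 to 2 with 1 library left out. The fits of a single sample number or of averaged plates have 2 values per group, which limits what they can call. The block changed no other call of the 9 genes than those given with it. Of the pathway list genes that are not among the 9, 36 were called against vehicle, 1 with sample number 1 alone, 12 with sample number 2 alone and 12 with averaged plates, and 30 against spironolactone, where these numbers were 0, 12 and 14. The alternatives for list genes, and the tests of treatment by sample number, were chosen after seeing the data.

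Over all genes, 2847 were called against vehicle (4563 with the block, 17 and 888 with sample numbers 1 and 2 alone, 722 with averaged plates, 1766 to 2246 with 1 library left out) and 2454 against spironolactone (3974, 4, 943, 535 and 1565 to 1865). Between spironolactone and vehicle 0 were called, with 13 by DESeq2 and 97 with the block.

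Direction held for the 9 genes in both comparisons with aldosterone under all alternatives run. Between spironolactone and vehicle, where none was called, the log2 fold change turned to -0.021 for *Fgf10* with sample number 1 alone, and to 0.046 for *Fgf7*, 0.0030 for *Fgfr1* and 0.023 for *Csf1* with sample number 2 alone. With 1 library left out it ranged from -0.091 to 0.039 for *Csf1*, -0.072 to 0.039 for *Fgf2*, -0.043 to 0.024 for *Fgf7*, -0.072 to 0.00095 for *Fgfr1* and -0.0039 to 0.065 for *Fgf10*. Against vehicle, the value of *Met* was 0.040 with sample number 1 alone and -0.17 to 0.097 with 1 library left out, and that of *Kit* was -0.23 with sample number 2 alone and -0.18 to 0.72 with 1 library left out. The cause was not tested.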
